A study of Homo sapiens with 6 samples.

Results

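Genes of pigmentation, of the melanocyte factor MITF and of the melanosome were followed in A375SM cells, a human melanoma line derived as a more metastatic form of A375. They are 36 genes given by symbol, each matched to its NCBI gene identifier, of 40895 genes counted. PolyA RNA was sequenced as read pairs of 150 bases in 6 libraries. In 3 libraries the cells carried a short hairpin RNA against PRAME (shPRAME), and in 3 a control hairpin (shCtrl). The labels give all 6 the genotype WT, the tissue skin and the same batch. They do not state the hairpin sequences or their number, how and when they were introduced, or whether the cells were a pool or a clone. Nor do they say whether replicates were separate cultures, and a p-value here covers the variation among the libraries at hand, which could be technical in origin.

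Melanin is made inside melanosomes, organelles related to lysosomes. MITF switches on the genes of the pigment enzymes and of many melanosome proteins, and signals through the receptors MC1R and KIT act on MITF. PMEL forms the fibrils on which melanin is laid down, and sorting complexes named AP-3 and BLOC, together with RAB32 and RAB38, deliver the enzymes to the young organelle. A motor of RAB27A, melanophilin (MLPH) and myosin Va (MYO5A) then carries ripe melanosomes along actin to the cell edge. Melanoma cells can lose this programme in part or whole.

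Library totals lay between 30842788 and 33854545 counts in shPRAME and between 31525186 and 34107332 in shCtrl. At these depths the limit that a count of 0 allows, 3 counts, was 0.088 to 0.0973 per 1e+06 counts of the unscaled library total. It holds for a single library and for counting error only. Levels are given in CPM (TMM-scaled counts per 1e+06 counts). Ribosomal RNA took 2.06 to 3.14% of counts in shPRAME and 4.61 to 4.99% in shCtrl, and the part of this in the results was not tested. PRAME itself had 57.7, 57.8 and 53.8 CPM in shPRAME, against 166, 164 and 165 CPM in shCtrl, or 34.2% of the control level (log2 fold change -1.55, SE 0.0314, edgeR adjusted p = 4.85e-17). The comparison asks how the cells with the PRAME hairpin differ from those with the control hairpin. It covered 15954 genes, of which 74.4% passed at an adjusted p under 0.05, with 37.7% higher and 36.8% lower in shPRAME, and the median log2 fold change was 0.01. Passing is therefore the usual outcome for a gene here, and counts of members are read against these shares.

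The labelled cell type was checked on markers of the melanocyte lineage. SOX10, a neural crest factor kept by melanoma cells, had 275 CPM in shPRAME and 266 CPM in shCtrl (edgeR adjusted p = 0.076). S100B, a calcium-binding protein used to stain melanoma, averaged 28.2 CPM in shPRAME and 54 CPM in shCtrl. TYR had no count, MLANA 1 count in all, and PMEL a mean of 0.272 CPM in shPRAME and 0.111 CPM in shCtrl. The label melanoma thus rested on SOX10, S100A1 (91.7 CPM in shPRAME and 65.8 CPM in shCtrl), S100B and PRAME, and not on the antigens of differentiated pigment cells. Among 7 keratinocyte markers KRT5, KRT1 and TP63 had no count, and the list summed to 23.4 to 24.5 CPM in shPRAME and 29.2 to 30.5 CPM in shCtrl, nearly all of it KRT10. KRT15 averaged 0.159 CPM in shPRAME and 1.25 CPM in shCtrl. Of 8 fibroblast markers 6 were tested, 5 higher and 1 lower. Of the 5, COL1A1, COL1A2, COL3A1 and LUM were below 0.297 CPM, the minimum for testing, in every shCtrl library. They could be tested only through shPRAME and so had to differ, and the count is a description. The list summed to 61.9 to 67.5 CPM in shPRAME and 66 to 69.3 CPM in shCtrl. These near-equal sums were made of different genes, since COL1A2 averaged 21.6 CPM in shPRAME with no count in shCtrl, LUM 9.88 CPM in shPRAME and 0.0102 CPM in shCtrl, and PDGFRB 17.4 CPM in shPRAME and 64.3 CPM in shCtrl. Of 8 leukocyte markers, CD3E and MS4A1 had no count, and PTPRC averaged 0.925 CPM in shPRAME with no count in shCtrl. LYZ averaged 1.31 CPM in shPRAME and 0.0706 CPM in shCtrl. The list summed to 2.12 to 2.85 CPM in shPRAME and 0.367 to 0.414 CPM in shCtrl. The part of these markers in the results below was not tested.

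Promoters are shown first because the members differ in whether they hold the sequence that MITF is known to read. MITF binds E-boxes, and its preferred form in pigment genes is the M-box, with the core TCATGTG. RefSeq promoter windows (250 bases before to 50 after a gene start, build GRCh38.p14) were available for 30 of the 36 members, in 50 windows. The windows were searched on both strands for TCATGTG, for the E-box CATGTG, which any TCATGTG also contains, and for the E-box CACGTG. The 250 bases before the start are printed below, 5′ to 3′ on the strand of the gene. Capitals mark TCATGTG or its reverse complement in the first 4 sequences and CACGTG in MLPH, while CATGTG outside an M-box core is left in lower case. TYR, TYRP1 and DCT are the pigment enzymes, GPNMB is the M-box gene with the most reads, and MLPH, which has CACGTG and no TCATGTG, is the transport gene that rose.

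TYR, chr11:89177625-89177874, plus strand: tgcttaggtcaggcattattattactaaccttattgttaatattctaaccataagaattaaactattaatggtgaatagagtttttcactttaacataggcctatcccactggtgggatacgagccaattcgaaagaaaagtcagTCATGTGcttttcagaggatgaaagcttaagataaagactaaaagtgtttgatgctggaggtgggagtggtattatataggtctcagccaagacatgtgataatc
TYRP1, chr9:12693135-12693384, plus strand: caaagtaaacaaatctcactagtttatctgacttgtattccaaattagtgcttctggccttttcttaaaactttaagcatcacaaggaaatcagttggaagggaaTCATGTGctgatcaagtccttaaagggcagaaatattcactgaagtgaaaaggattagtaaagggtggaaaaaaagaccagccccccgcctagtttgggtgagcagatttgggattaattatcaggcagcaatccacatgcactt
DCT, chr13:94479683-94479932, minus strand: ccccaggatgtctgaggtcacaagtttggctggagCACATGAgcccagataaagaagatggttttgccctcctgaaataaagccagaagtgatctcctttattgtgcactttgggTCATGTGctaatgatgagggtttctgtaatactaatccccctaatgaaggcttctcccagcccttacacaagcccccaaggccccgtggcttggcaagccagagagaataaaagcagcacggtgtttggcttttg
GPNMB, chr7:23246525-23246774, plus strand: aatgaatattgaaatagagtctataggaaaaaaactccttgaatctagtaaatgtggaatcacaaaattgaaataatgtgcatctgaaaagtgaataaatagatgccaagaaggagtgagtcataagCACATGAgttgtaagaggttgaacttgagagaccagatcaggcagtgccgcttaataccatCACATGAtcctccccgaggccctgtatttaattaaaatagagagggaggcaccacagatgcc
MLPH, chr2:237487001-237487250, plus strand: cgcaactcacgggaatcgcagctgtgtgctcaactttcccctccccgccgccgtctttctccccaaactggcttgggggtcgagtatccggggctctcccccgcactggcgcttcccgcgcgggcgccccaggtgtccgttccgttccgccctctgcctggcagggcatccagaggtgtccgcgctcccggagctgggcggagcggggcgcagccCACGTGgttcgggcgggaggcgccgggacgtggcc

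The core TCATGTG was found in 7 of the 30 members (23.3%), namely TYR, TYRP1, DCT, GPNMB, GPR143, SLC24A5 and TSPAN10, and in 3.59% of 27305 genes with a window. Its match began at -105 in TYR, -145 in TYRP1, -215 and -135 in DCT, and -123 and -62 in GPNMB, counted from the first transcribed base at 0. Of these 7 genes, 5 were too low to be tested in these cells, GPNMB was lower in shPRAME and TSPAN10 did not pass. CATGTG was found in 14 of 30 members and in 13.4% of genes with a window, and CACGTG in 5 of 30 members (ATP7A, GPM6B, HPS3, HPS5 and MLPH) and in 8.77% of genes. None of the 7 members that rose had TCATGTG in a window given here, though RAB38 and CDK2 had no window. Only GPNMB and TSPAN10 of the TCATGTG genes were tested, so few could have risen. CATGTG was held by OCA2, CAPN3 and HPS4, which rose, and by GPNMB, LYST and CITED1, which were lower. Of the CACGTG genes, GPM6B and MLPH rose, while ATP7A, HPS3 and HPS5 were lower. No MITF window held any of these motifs. A match is only a description of the letters in the window.

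MITF was lower in shPRAME by a small amount. It had 37.8, 38.3 and 36.8 CPM in shPRAME, against 45.3, 43 and 45.4 CPM in shCtrl. The highest shPRAME library was below the lowest shCtrl one. The means were 37.6 ± 0.739 and 44.6 ± 1.38 CPM (SD, n = 3 each), a 1.18-fold decrease (log2 fold change -0.24, SE 0.0384, edgeR adjusted p = 2.05e-05). Against a minimum fold of 1.2 the difference did not pass (edgeR glmTreat adjusted p = 0.622). In bulk RNA, fewer cells with a transcript and less of it per cell cannot be told apart. The gene (chromosome 3, 69739464 to 69968332, GRCh38) has several starts, of which the melanocyte form uses the last, and the counts do not separate them. Per kilobase of its longest transcript MITF stood at 7.82 CPM in shPRAME and 9.26 CPM in shCtrl, and over all libraries it was at percentile 56.8 of the tested genes with a known length.

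The receptors that signal to MITF differed in whether they were present at all. MC1R, the receptor for melanocortins that raises cAMP in melanocytes, had 11.7, 12.3 and 12.1 CPM in shPRAME and 12.5, 11.1 and 11 CPM in shCtrl. The groups overlapped, and the log2 fold change of 0.06 (SE 0.0716) did not pass (edgeR adjusted p = 0.444). KIT, the receptor for stem cell factor that melanoblasts need to survive, had 0 counts in all 6 libraries.

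The pigment enzymes had almost no reads in either group. TYR, tyrosinase, which starts melanin synthesis, had 0 counts in all 6 libraries. TYRP1, which stabilises tyrosinase and acts later in the pathway, had 2, 0 and 2 counts in shPRAME and 0, 5 and 0 in shCtrl, so no direction can be read. DCT, dopachrome tautomerase, had 7, 7 and 9 counts in shPRAME and 1, 1 and 2 in shCtrl. The DCT groups did not overlap, and the ratio of their summed counts, 23 and 4, was 5.58 with a 95% counting interval of 1.91 to 22.2. DCT did not reach the minimum for testing. Without a filter on low counts its log2 fold change was 2.38 (edgeR adjusted p = 0.00379). Adjusted p-values of edgeR without the filter, here and below, are not on the footing of the main test. That of GPNMB moved from 3.00e-16 to 1.32e-310. All of the shPRAME levels of DCT, 0.203 to 0.261 CPM, amount to fewer than 10 counts a library.

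Structural and antigenic proteins of the melanosome were likewise near 0, apart from GPNMB. PMEL, the fibril protein, had 11, 6 and 10 counts in shPRAME and 6, 4 and 1 in shCtrl, and these groups overlapped at 6 counts (without the filter, log2 fold change 1.24, edgeR adjusted p = 0.0544). MLANA, the antigen MART-1 of early melanosomes, had no count in shPRAME and 1 in shCtrl. GPNMB, a glycoprotein of melanosomes and lysosomes related to PMEL, had 180, 183 and 185 CPM in shPRAME, against 361, 360 and 360 CPM in shCtrl. Its levels fell to 183 ± 2.59 CPM in shPRAME, against 360 ± 0.705 CPM in shCtrl (SD, n = 3 each), 1.97-fold lower (log2 fold change -0.98, SE 0.023, edgeR adjusted p = 3.00e-16). Per kilobase it had the highest level of the members, 63.8 CPM in shPRAME and 126 CPM in shCtrl. It lies on chromosome 7, 23246775 to 23275108, where the median log2 fold change of the 20 nearest tested genes was -0.13.

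**Figure D1:**
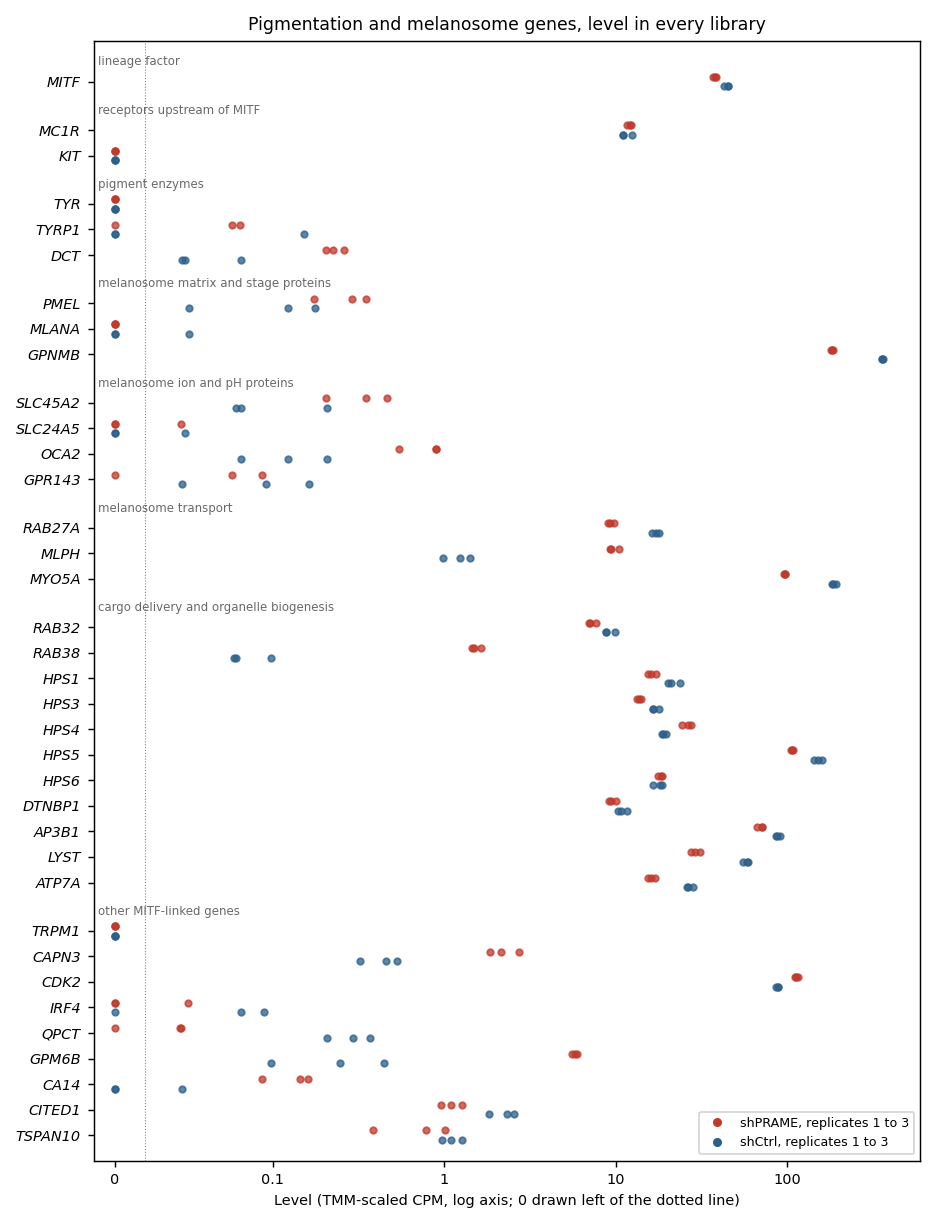
Level of each of the 36 members in every library, in TMM-scaled CPM on a log axis (0 is drawn left of the dotted line), with shPRAME above shCtrl in each row and members grouped by role. The pigment enzymes, PMEL, MLANA and KIT sit at or near 0 in both groups, while MITF, GPNMB, MYO5A and the organelle biogenesis genes other than RAB38 lie well above it. RAB38 is near 0 in shCtrl and at 1.45 to 1.65 CPM in shPRAME.

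Of 4 membrane proteins that set the ions, acidity or size of the melanosome, OCA2 was the only one to reach the minimum for testing. OCA2, a chloride transport protein that lowers melanosome acidity, had 17, 31 and 31 counts in shPRAME and 7, 4 and 2 in shCtrl. The groups did not overlap, and the mean was 0.78 ± 0.205 CPM in shPRAME and 0.131 ± 0.0715 CPM in shCtrl (log2 fold change 2.52, SE 0.402, edgeR adjusted p = 2.30e-05). OCA2 reached the minimum for testing only through shPRAME and so had to differ, and its change is given as a description. Even the higher group was at a level per kilobase of 0.245 CPM. SLC45A2, a transporter that also acts on melanosome acidity, had 11, 16 and 7 counts in shPRAME and 7, 2 and 2 in shCtrl, which overlap at 7 counts (without the filter, log2 fold change 1.56, edgeR adjusted p = 0.0068). GPR143, a receptor of the melanosome membrane mutated in ocular albinism, had 0, 2 and 3 counts in shPRAME and 1, 3 and 5 in shCtrl. SLC24A5, a cation exchanger in which a common variant lightens skin, had 1 count in each group. MYEF2, which overlaps SLC24A5 over 8041 bases and is named after its values were seen, averaged 17.3 ± 0.261 CPM in shPRAME and 2.89 ± 0.418 CPM in shCtrl (log2 fold change 2.58).

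The genes of the transport motor moved in opposite directions. MLPH, melanophilin (chromosome 2, 237486410 to 237555322, GRCh38), is the linker between the motor and its Rab. It had 10.5, 9.31 and 9.35 CPM in shPRAME, against 1.42, 0.978 and 1.23 CPM in shCtrl. The level was 7.99-fold higher (log2 fold change 3, SE 0.13, edgeR adjusted p = 1.11e-12), to 9.71 ± 0.654 CPM in shPRAME against 1.21 ± 0.221 CPM in shCtrl (SD, n = 3 each). RAB27A, the small GTPase on the melanosome surface, had 9.05, 9.83 and 9.32 CPM in shPRAME, against 16.2, 18 and 17.3 CPM in shCtrl. MYO5A, the myosin, had 97.1, 97.2 and 95.9 CPM in shPRAME, against 184, 185 and 194 CPM in shCtrl. RAB27A fell 1.82-fold (log2 fold change -0.87, SE 0.0682, adjusted p = 3.67e-09) and MYO5A 1.94-fold (log2 fold change -0.96, SE 0.0282, adjusted p = 6.61e-15), and for all 3 genes the groups did not overlap.

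The balance of linker to motor was therefore different. Per kilobase of transcript, the ratio of MLPH to MYO5A level was 0.344, 0.306 and 0.312 in shPRAME, against 0.0247, 0.0169 and 0.0203 in shCtrl. The ratio of MLPH to RAB27A was 1.05, 0.857 and 0.908 in shPRAME, against 0.0793, 0.0491 and 0.0645 in shCtrl. In shPRAME cells MLPH and RAB27A mRNA thus stood close to level, while in shCtrl cells MLPH was far below. These ratios were chosen after the values were seen and carry no test. RAB27A shares 1940 bases with PIGBOS1, whose log2 fold change of -0.07 did not pass, and their reads in that stretch are uncertain. The genes around MYO5A had a median change of -0.32 on the log2 scale, and with that regional shift removed its own was -0.63.

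The genes around MLPH were divided. The 20 tested genes nearest to it on chromosome 2 had a median change of -0.38 on the log2 scale. The closest, RAB17, a Rab of epithelial cells that lies 19004 bases away, averaged 1.54 ± 0.514 CPM in shPRAME and 0.798 ± 0.13 CPM in shCtrl (log2 fold change 0.94, edgeR adjusted p = 0.00289). The next, COL6A3, had a log2 fold change of 4, and the gene LRRFIP1 about as far away had -0.97. COL6A3 and LRRFIP1 are named after their values were seen. RAB17, COL6A3 and LRRFIP1 thus shared no direction, while the 20 neighbours leaned lower by their median.

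**Figure D2:**
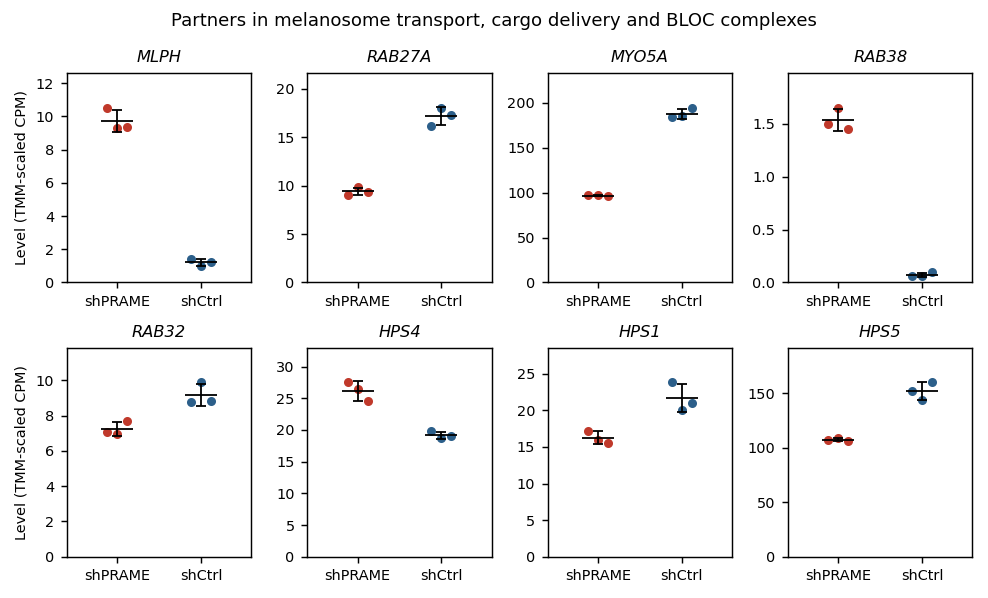
Levels in TMM-scaled CPM of 8 genes of melanosome transport, cargo delivery and BLOC complexes, each on its own axis from 0, with shPRAME left of shCtrl. Points are libraries and bars the mean and SD of 3; MLPH, RAB38 and HPS4 are higher in shPRAME, and the other 5 genes are lower.

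In the Rab pair that delivers enzymes to young melanosomes, RAB38 had more counts in shPRAME. The small decrease of RAB32 depended on the processing. RAB38, found mainly in pigment cells (chromosome 11, 87803715 to 88175443, GRCh38), had 47, 57 and 50 counts in shPRAME and 2, 2 and 3 in shCtrl. Its mean was 1.53 ± 0.106 CPM in shPRAME and 0.0725 ± 0.0214 CPM in shCtrl. The ratio of summed counts was 21.4, with a 95% counting interval of 10.1 to 54 (log2 fold change 4.35, SE 0.325, edgeR adjusted p = 1.90e-09). RAB38 reached the minimum for testing only through shPRAME and so had to differ, and its change is given as a description. RAB32, its close relative with a wider distribution, had 7.07, 6.96 and 7.7 CPM in shPRAME, against 8.78, 9.88 and 8.82 CPM in shCtrl (log2 fold change -0.34, SE 0.0864, adjusted p = 0.00201). With the regional shift of -0.24 removed, the log2 fold change of RAB32 was -0.09 and did not pass (adjusted p = 0.337). Nor did RAB32 pass against a minimum fold of 1.2 (edgeR glmTreat adjusted p = 0.137). RAB32 remained the more abundant: per kilobase the ratio of RAB38 to RAB32 was 0.156 to 0.197 in shPRAME, against 0.00514 to 0.00916 in shCtrl.

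Cargo delivery and organelle biogenesis took in 11 members with the Rab pair, all tested. Of these 2 were higher, 8 lower and 1 did not pass, and none fell by 2-fold. Over all tested genes 37.7% were higher and 36.8% lower. In BLOC-3, which activates RAB32 and RAB38, the 2 subunits went opposite ways. HPS4 had 27.5, 26.4 and 24.5 CPM in shPRAME, against 19.8, 18.7 and 19 CPM in shCtrl (log2 fold change 0.45, SE 0.0548, edgeR adjusted p = 1.05e-06). HPS1 had 17.2, 16 and 15.5 CPM in shPRAME, against 23.8, 20.1 and 21 CPM in shCtrl (log2 fold change -0.41, SE 0.0678, adjusted p = 3.15e-05). Neither pair of groups overlapped, and the per kilobase ratio of HPS4 to HPS1 was 0.956 to 1 in shPRAME and 0.502 to 0.563 in shCtrl.

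BLOC-2, the complex that steers cargo carriers to melanosomes, had HPS5 and HPS3 lower, while HPS6 did not pass. HPS5 had 107, 109 and 106 CPM in shPRAME, against 152, 144 and 160 CPM in shCtrl (log2 fold change -0.5, SE 0.0343, edgeR adjusted p = 5.37e-10). HPS3 averaged 13.7 ± 0.322 CPM in shPRAME and 16.9 ± 0.753 CPM in shCtrl (log2 fold change -0.31, SE 0.0609, adjusted p = 2.02e-04), which was -0.19 with the regional shift removed (adjusted p = 0.012) and did not pass against a fold of 1.2 (adjusted p = 0.158). HPS6, the remaining subunit, averaged 18.2 ± 0.518 CPM in shPRAME and 17.8 ± 1.15 CPM in shCtrl, with overlapping groups (log2 fold change 0.04, adjusted p = 0.589). With the regional shift removed HPS6 passed as higher (0.17, edgeR adjusted p = 0.0213). All BLOC-2 and BLOC-3 subunits thus had reads well above the minimum for testing, unlike the enzymes they help deliver.

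Among other sorting genes, AP3B1, a subunit of the adaptor AP-3 mutated in Hermansky-Pudlak syndrome, averaged 69.9 ± 2.5 CPM in shPRAME and 88.6 ± 2.16 CPM in shCtrl (log2 fold change -0.34, SE 0.0333, edgeR adjusted p = 6.51e-08). DTNBP1, dysbindin of BLOC-1, averaged 9.53 ± 0.42 CPM in shPRAME and 10.9 ± 0.667 CPM in shCtrl (log2 fold change -0.19, adjusted p = 0.0295). That call depended on the processing: it was lost against a fold of 1.2 (adjusted p = 0.795), with DESeq2 (adjusted p = 0.0808), with library totals as the only scaling (adjusted p = 0.0966), without a filter on low counts (adjusted p = 0.0554), and without shPRAME replicate 1 (0.0765), shPRAME replicate 2 (0.11) or shCtrl replicate 3 (0.104) by edgeR. With the regional shift removed it was stronger, at -0.4 (adjusted p = 1.59e-04). DTNBP1 also overlaps the noncoding genes LOC105374947 and DTNBP1-AS1.

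The largest decrease in this group was in LYST, the regulator of lysosome and melanosome size mutated in Chediak-Higashi syndrome. It had 31.2, 29.1 and 27.6 CPM in shPRAME, against 55.1, 58.1 and 59 CPM in shCtrl. The groups were far apart, at a 1.96-fold decrease (log2 fold change -0.97, SE 0.0448, edgeR adjusted p = 2.71e-12), in a region of chromosome 1 whose median log2 fold change was 0.1. ATP7A, the copper pump that loads tyrosinase, had 17, 16.1 and 15.4 CPM in shPRAME, against 26.2, 28.2 and 26.3 CPM in shCtrl (log2 fold change -0.74, SE 0.0558, adjusted p = 2.15e-09). Its 20 neighbours on the X chromosome had a median of -0.52, and with that shift removed the log2 fold change of ATP7A was -0.21.

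**Figure D3:**
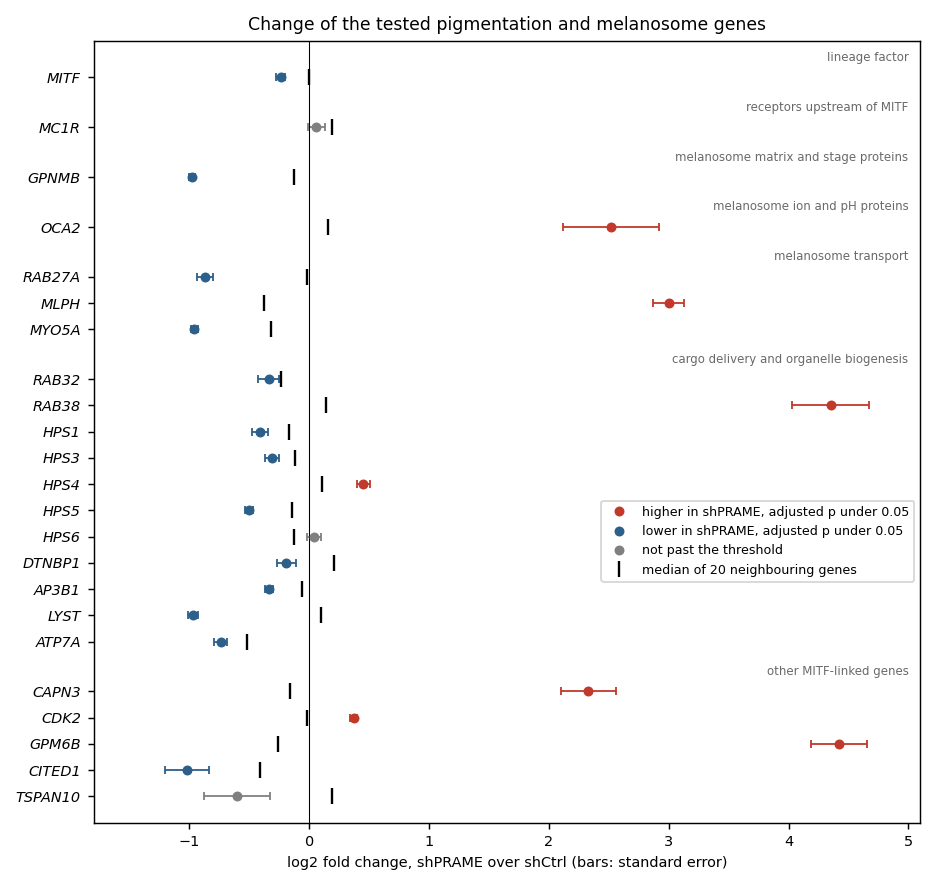
log2 fold change of shPRAME over shCtrl for the 23 tested members, with standard errors, and the median of 20 neighbouring tested genes as a black tick. RAB38, GPM6B, MLPH, OCA2 and CAPN3 lie at 2.33 or above, while no tested member fell by more than 1.02. RAB38, GPM6B and OCA2 passed the filter on low counts only through shPRAME and so had to differ.

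The other genes tied to MITF split between low and abundant messages. GPM6B, a membrane glycoprotein of neural and melanocytic cells (X chromosome, 13770939 to 13938638, GRCh38), had 187, 201 and 192 counts in shPRAME and 15, 8 and 3 in shCtrl. Its mean was 5.79 ± 0.215 CPM in shPRAME and 0.262 ± 0.174 CPM in shCtrl (log2 fold change 4.42, SE 0.232, edgeR adjusted p = 1.51e-11). GPM6B reached the minimum for testing only through shPRAME and so had to differ, and its change is given as a description. It overlaps OFD1 over 2800 bases, and OFD1 was lower in shPRAME (log2 fold change -0.19). CAPN3, a calpain whose short form is expressed in melanocytes, had 2.72, 2.15 and 1.85 CPM in shPRAME, against 0.532, 0.459 and 0.324 CPM in shCtrl (log2 fold change 2.33, SE 0.23, adjusted p = 7.48e-08). CDK2, the cell cycle kinase whose gene adjoins PMEL and is controlled by MITF in melanoma, had 111, 113 and 116 CPM in shPRAME, against 85.8, 88 and 88.7 CPM in shCtrl (log2 fold change 0.37, SE 0.0289, adjusted p = 3.05e-09). CDK2 thus rose a little while PMEL, next to it, had at most 11 counts in any library.

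CITED1, a transcription cofactor of differentiated melanocytes, averaged 1.11 ± 0.159 CPM in shPRAME and 2.24 ± 0.386 CPM in shCtrl (log2 fold change -1.02, SE 0.183, edgeR adjusted p = 8.28e-05). Its neighbours on the X chromosome had a median of -0.41, and with that removed its own value was -0.61. TSPAN10, a tetraspanin of pigment cells, had 12, 35 and 27 counts in shPRAME and 43, 36 and 30 in shCtrl. These overlap, and the log2 fold change of -0.6 did not pass (adjusted p = 0.058). Leaving out a single library moved it in either direction: it was -0.91 without shPRAME replicate 2 (edgeR adjusted p = 0.0149) and -0.31 without shPRAME replicate 1 (adjusted p = 0.26). It passed by limma-voom (0.047), without a filter (edgeR adjusted p = 0.0275) and with the regional shift removed (0.0166).

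The last 4 genes were at the edge of detection. TRPM1, a channel of mature melanocytes whose intron holds miR-211, had 0 counts in all 6 libraries. IRF4, a factor that acts with MITF on the tyrosinase gene, had 1, 0 and 0 counts in shPRAME and 3, 0 and 2 in shCtrl. QPCT, a glutaminyl cyclase, had 0, 1 and 1 counts in shPRAME and 7, 12 and 9 in shCtrl, with a ratio of summed counts of 0.0693 (95% counting interval 0.00801 to 0.275). CA14, a carbonic anhydrase, had 5, 5 and 3 counts in shPRAME and 1, 0 and 0 in shCtrl, a ratio of 12.6 (1.9 to 536). The groups did not overlap for QPCT and CA14, both too low for the test with the filter. Without the filter the log2 fold change was -3.62 for QPCT (edgeR adjusted p = 2.19e-05) and 3.25 for CA14 (adjusted p = 0.0117). Both values rest on few counts and are given as a description.

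Counted together, 33 of the 36 members had a count in some library and 23 were tested. Of the 23, 7 were higher, 13 lower and 3 did not pass, with a median log2 fold change of -0.31, against 0.01 for all tested genes. Over all tested genes 37.7% were higher and 36.8% lower. Of the 7 that rose, OCA2, RAB38 and GPM6B passed the filter on low counts only through shPRAME and so had to differ. Among the other 20, 4 were higher and 13 lower. No member passed only through shCtrl, so setting the 3 aside removed higher genes alone. The 37.7% and 36.8% of all tested genes take in genes that passed through a single group. They are not like for like with the 20, and these counts are a description. At least 2-fold higher were 5 members, 3 of them OCA2, RAB38 and GPM6B, and of the other 20 it was 2, MLPH and CAPN3. Of all tested genes 10.1% were, but that share takes in genes that passed the filter through a single group. It is therefore not like for like with the 20, and 2 of 20 is no result about these genes. At least 2-fold lower was CITED1 alone, where 8.43% of all tested genes were. The groups did not overlap at 20 of the 23, and at 76.5% of all tested genes. With 74.4% of all tested genes called, 20 called of 23 is close to the background and is no result about these genes. Summed over all members, 788 to 789 CPM were counted in shPRAME and 1120 to 1150 CPM in shCtrl. GPNMB weighed most in both groups, followed by CDK2, HPS5 and MYO5A in shPRAME and by MYO5A and HPS5 in shCtrl.

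**Figure D4:**
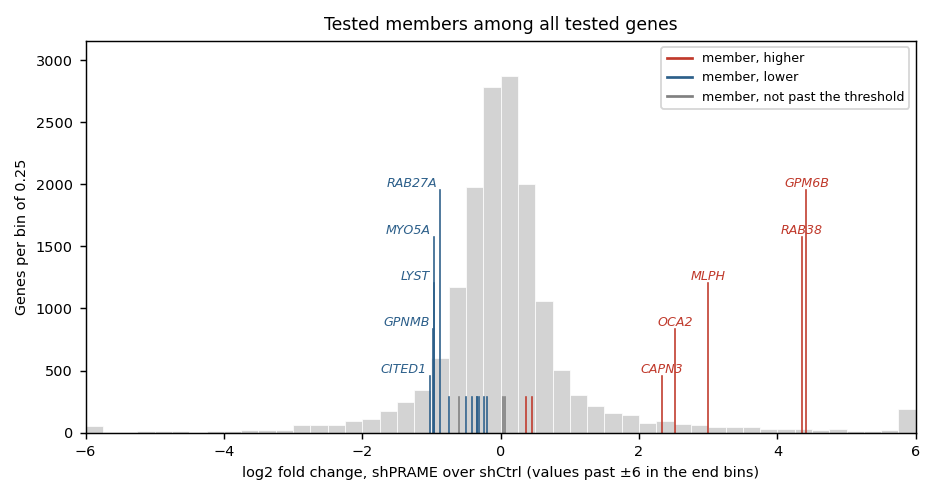
Number of tested genes per bin of 0.25 of log2 fold change (shPRAME over shCtrl; grey bars), with the 23 tested members as lines and names for those beyond 0.8 in either direction. GPM6B, RAB38, MLPH, OCA2 and CAPN3 lie in the right tail, and CITED1, GPNMB, LYST, MYO5A and RAB27A near -1. GPM6B, RAB38 and OCA2 passed the filter on low counts only through shPRAME and so had to differ.

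By position, 6 of the 36 members lie on chromosome 15. They shared no direction: MYO5A and RAB27A fell, OCA2 and CAPN3 rose, and SLC24A5 and TRPM1 had at most 1 count per library. The medians of up to 20 nearest tested genes around each tested member lay between -0.52 and 0.21.

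Other genes of the same pathways, 89 in 7 lists, were examined beside the members, 81 of them tested, of which 35 were higher and 30 lower. Over all tested genes 37.7% were higher and 36.8% lower, and the counts per list below are a description. Of the 35, 5 passed the filter on low counts only through shPRAME and so had to differ, namely APOE, EDN3, MYO7A, MYRIP and PPARGC1A. Among factors that control MITF or share its family, 5 of 11 tested were higher and 3 lower. LEF1, the Wnt effector that acts with MITF, rose to 113 ± 2.45 CPM in shPRAME, against 82.7 ± 1.89 CPM in shCtrl (log2 fold change 0.45, edgeR adjusted p = 3.09e-10). ZEB1, a repressor associated with low MITF in melanoma, rose to 196 ± 5.11 CPM in shPRAME, against 150 ± 6.27 CPM in shCtrl (log2 fold change 0.38). PAX3, which activates MITF together with SOX10, fell to 9.23 ± 0.6 CPM in shPRAME, against 13.2 ± 0.0806 CPM in shCtrl (log2 fold change -0.51). TFE3, a relative of MITF that drives lysosomal genes, fell to 36.2 ± 0.533 CPM in shPRAME, against 68.2 ± 1.04 CPM in shCtrl (log2 fold change -0.91, adjusted p = 1.42e-13).

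Further MITF targets were 12 tested genes, 7 higher and 3 lower, with a median log2 fold change of 0.19. Of the 7, PPARGC1A passed the filter only through shPRAME. EDNRB, the endothelin receptor of melanoblasts, had 118, 116 and 113 CPM in shPRAME, against 37, 33.8 and 36.8 CPM in shCtrl (log2 fold change 1.69, SE 0.0367, edgeR adjusted p = 1.15e-16). MET, the receptor for hepatocyte growth factor, averaged 143 ± 3.07 CPM in shPRAME and 75.9 ± 0.895 CPM in shCtrl (log2 fold change 0.91). HIF1A, the hypoxia factor, averaged 366 ± 3.42 CPM in shPRAME and 687 ± 39.7 CPM in shCtrl (log2 fold change -0.91). BCL2A1, a survival gene, averaged 5.37 ± 0.284 CPM in shPRAME and 8.76 ± 0.705 CPM in shCtrl (log2 fold change -0.71).

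Ligands and the cAMP arm gave 9 tested genes, 7 higher and 2 lower, with no count of POMC, the precursor of the MC1R ligand. EDN3, the ligand of EDNRB, had 10.5, 9.8 and 9.18 CPM in shPRAME, against 0.0591, 0.122 and 0.13 CPM in shCtrl (log2 fold change 6.53). EDN3 passed the filter on low counts only through shPRAME and so had to differ, and its change is given as a description. GNAS, which encodes the G protein alpha subunit that couples MC1R to cAMP, had 821, 828 and 817 CPM in shPRAME, against 365, 372 and 369 CPM in shCtrl (log2 fold change 1.16, SE 0.022, adjusted p = 2.07e-17). The catalytic subunits of protein kinase A fell: PRKACA averaged 92.8 ± 2.68 CPM in shPRAME and 117 ± 0.703 CPM in shCtrl, and PRKACB 71.2 ± 1.27 CPM in shPRAME and 82.4 ± 3.77 CPM in shCtrl.

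The rest of the sorting machinery was divided in direction. Of the 7 BLOC-1 subunits other than DTNBP1, 3 were higher and 2 lower, with BLOC1S4 at a log2 fold change of 0.65 and BLOC1S5 at 0.51, against BLOC1S2 at -0.43 and BLOC1S6 at -0.24. Of 18 genes of AP-3, AP-1 and endosomal trafficking, 5 were higher and 8 lower. SGSM2, which switches off RAB32 and RAB38, rose to 27.8 ± 0.978 CPM in shPRAME, against 17.9 ± 0.506 CPM in shCtrl (log2 fold change 0.63, edgeR adjusted p = 5.44e-09), and AP1G1, an AP-1 subunit, had a log2 fold change of 0.17. VAMP7, the fusion protein of carriers that reach the melanosome, fell to 46.2 ± 1.75 CPM in shPRAME, against 92.3 ± 1.81 CPM in shCtrl (log2 fold change -1, adjusted p = 5.37e-14). STX12, a syntaxin of recycling endosomes, fell to 26.5 ± 1.02 CPM in shPRAME, against 41.6 ± 1.53 CPM in shCtrl.

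Among RAB27 effectors and motors, 5 of 11 tested were higher and 3 lower. Of the 5, MYO7A and MYRIP passed the filter only through shPRAME. RAB27B, the close relative of RAB27A, had 6.46, 6.7 and 5.76 CPM in shPRAME, against 1.18, 1.31 and 1.52 CPM in shCtrl (log2 fold change 2.23, SE 0.134, edgeR adjusted p = 9.66e-11), opposite to RAB27A. Per kilobase the ratio of RAB27B to RAB27A was 0.294 to 0.339 in shPRAME and 0.0346 to 0.0419 in shCtrl. SYTL2, an effector that tethers melanosomes at the membrane, had a log2 fold change of 0.65, CHM, the escort protein that lipidates Rabs, -0.4, and RAB3A, a Rab of secretory vesicles, -1.1. Of 13 genes of PMEL processing and melanosome ions 3 were higher and 9 lower, with a median of -0.29. Of the 3, APOE passed the filter only through shPRAME. OSTM1, partner of the lysosomal chloride exchanger CLCN7, fell to 39 ± 0.937 CPM in shPRAME, against 82.8 ± 5.24 CPM in shCtrl (log2 fold change -1.08), and SLC36A1, an amino acid exporter of lysosomes and melanosomes, to 16 ± 0.768 CPM in shPRAME, against 29.9 ± 0.0569 CPM in shCtrl (log2 fold change -0.9). CLCN7 itself had a log2 fold change of 0.23.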

How the data were processed

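Per the file headers, each library has a deposited file of counts with NCBI gene identifiers, whose values are whole numbers with unequal totals, not normalized. The submitters' processing notes list the tools STAR, Salmon and fastp, with hg38 and GRCh38 as builds. Their versions and roles, the annotation and the strand setting were not given in the sources used here, so overlapping and near-identical genes are uncertain. Each file had 40929 rows; 34 repeated identifiers were summed, and 40789 of 40895 matched RefSeq (GRCh38.p14), which gave symbols and coordinates. The test was the quasi-likelihood test of edgeR 4.0.16 under R 4.3.3 (filter by filterByExpr, scaling by TMM, glmQLFit, glmQLFTest, 2-sided, group as the only term) over all genes, with Benjamini-Hochberg adjustment and a threshold of 0.05. The filter kept genes at 0.297 CPM or more in at least 3 libraries. For the filters, CPM was taken on library totals without TMM scaling. Levels are TMM-scaled CPM, SE is the log2 fold change over the root of F, and per kilobase levels use the longest GENCODE 29 transcript. Counting intervals are exact binomial at 95%. Genes without a filtered test are given as counts. The fit was tested on simulated data. Replicates of a group differed by more than sampling noise (chi-square per degree of freedom 2.42 to 8.06).

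The members and lists were chosen with earlier results of these data known, so their counts are a description. All members are named; of each further list, up to 2 higher and 2 lower genes are named, by smallest adjusted p, with 1 CPM as the lowest mean. Genes named beyond this are neighbours, overlapping genes, markers, SOX10 and the genes of these lists that passed the filter only through shPRAME. Some genes of these lists are not reported here by name.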

Additional observations from a re-analysis of the deposited data

How the results depend on the processing

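Alternatives were RLE size factors, library totals only, no filter, a stricter filter (3 or more libraries at 1 CPM or above), limma-voom 3.58.1, DESeq2 1.42.0, a test against a fold of 1.2, the replicate number as a block, removal of the regional shift (the median of the 10 nearest tested genes on either side) and leaving out each library. PRAME and MITF kept their direction in all of them; against a fold of 1.2 the MITF value of -0.24 did not pass (adjusted p = 0.622), and 7726 genes in all passed. The number of members called higher was 6 to 10 and lower 9 to 14, the extremes being the stricter filter and no filter for the first and the fold of 1.2 and both no filter and limma-voom for the second. The same-numbered libraries did not deviate together (correlations -0.06, -0.12 and -0.1), so the numbers do not pair them; with the replicate block 11603 genes were called, 7 members higher and 13 lower, and MITF stood at -0.24 and PRAME at -1.55. Direction reversed for MC1R with the regional shift removed (-0.13, adjusted p = 0.112) and for HPS6 among the fits that left out 1 library (-0.01 to 0.07); neither passed there. Among the values of single members other than MITF, 312 kept direction and side of the threshold, 10 no longer passed and 5 newly passed; the cause was not tested. With library totals as the only scaling, 55.4% of called genes were higher, against 50.6%. Below 0.297 CPM, directions rest on few counts.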
